A study of Mus musculus with 9 samples.

Results

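Expression of 10 genes of the unfolded protein response and the integrated stress response was followed in neutrophils sorted from skin lesions of mice and from the skin around those lesions. The genes were chosen by name and by role, as chaperones of the endoplasmic reticulum (Hspa5, Hsp90b1, Sdf2l1 and Dnajb9), an ER-associated degradation factor (Herpud1), transcription factors (Xbp1, Atf4 and Ddit3) and targets of ATF4 and CHOP (Trib3 and Chac1). Every probe that the scanner files name for one of these genes was taken, which gave 10 of 34797 gene names and 12 of the 55681 probes of the table, with 2 probes each for Dnajb9 and Atf4 and 1 for each other gene. The 4 groups held neutrophils of female FVB/N mice with bright Gr-1 staining, from skin next to papillomas (papilloma skin, 2 arrays), from skin next to tumors (tumor skin, 2 arrays), from papillomas (3 arrays) and from tumors (2 arrays). All mice of all groups received the carcinogen DMBA when 6 and again when 13 weeks old, and the promoter PMA 2 times a week from week 1 until week 18-20, so untreated skin was not analysed here. For each array, neutrophils were purified from pooled tissue of several mice, and cells were sorted to over 98% purity. The main p-values therefore measure the spread between pools in values that the authors had already corrected for batch. The fit took no degrees of freedom for that correction, so these p-values can be too small. Lesions were digested with collagenase, dispase and DNase, and skin with collagenase alone, so digestion and tissue cannot be told apart in any comparison of a lesion with skin.

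When proteins misfold in the endoplasmic reticulum, the chaperone BiP (Hspa5) leaves the sensors IRE1, PERK and ATF6. IRE1 then splices the mRNA of Xbp1, ATF6 is cut and released, and both factors raise chaperones and degradation genes, while PERK phosphorylates eIF2alpha. That phosphorylation, which kinases sensing amino acid shortage, heme shortage or viral RNA can also carry out, lowers general translation and favours translation of ATF4, which raises CHOP (Ddit3), Trib3 and Chac1. Plasma cells keep the XBP1 arm strongly active for antibody secretion. The arrays measure RNA abundance, and neither Xbp1 splicing nor eIF2alpha phosphorylation was measured.

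The promoter windows of the members differ in their exact matches to response elements. The 4 stretches printed here show the matches that lie upstream of a start site. The windows, from RefSeq on build GRCm38.p6, cover 250 bases before to 50 bases after each start, and all 10 genes had one among 32851 windows. Searching both strands, the ER stress response element (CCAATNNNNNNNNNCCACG) was found in 0.119% of all windows and, among members, in Hspa5 and Hsp90b1, which has 2 copies in opposite directions. The related element ERSE-II was found in 0.0365% of all windows and in Herpud1 alone among members. The C/EBP-ATF response element bound by ATF4 with its partners (TGATGNAA, which reads TTNCATCA on the other strand) was in 3.97% of all windows and in Herpud1, Chac1 and Trib3, where it lay after the start. The motif TGACGTGG bound by XBP1 and ATF6 was in 0.676% of all windows and in no member. The capitals mark the matched letters, which show where these letters occur and not that a factor binds there. Sites with other letters or outside the windows were not searched, so a missing match does not show that a gene lacks an element.
Hspa5, chr2:34772005-34772063, plus strand, ERSE: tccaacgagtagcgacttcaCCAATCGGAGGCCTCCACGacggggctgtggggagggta
Hsp90b1, chr10:86705513-86705676, minus strand, 2 ERSE: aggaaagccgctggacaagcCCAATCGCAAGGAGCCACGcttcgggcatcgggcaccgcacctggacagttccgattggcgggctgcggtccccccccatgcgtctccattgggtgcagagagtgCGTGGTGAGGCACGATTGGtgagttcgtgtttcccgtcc
Herpud1, chr8:94386297-94386407, plus strand, ATF4 element and then ERSE-II: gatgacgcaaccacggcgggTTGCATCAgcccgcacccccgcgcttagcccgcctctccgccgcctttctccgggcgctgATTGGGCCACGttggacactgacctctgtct
Chac1, chr2:119351029-119351076, plus strand, ATF4 element: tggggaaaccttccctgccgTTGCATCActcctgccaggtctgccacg

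The levels below are log2 values of the deposited value table, in which the columns share medians of 6.08 to 6.12, and a difference of 1 is a 2-fold change. Not every column of that table ranks its probes like the scanner file of the same label. For papilloma skin 1 and for tumor 1, the best match by rank was the scanner file of tumor 2 (Spearman's rho of 0.923 and 0.946), against 0.587 and 0.825 with their own files, while the other 7 columns had rho of 0.931 to 0.980 with their own file. For papilloma 2 the best match was the file of papilloma 3, and the reverse, which changes no group. The arrays papilloma skin 1, tumor skin 1 and tumor 1 also had spike-in slopes of 0.678 to 0.894, against 1.04 to 1.06 on the other 6 arrays, with 90.7% to 95.0% of probes well above background against 43.5% to 63.5%. Main results are therefore also given without the columns papilloma skin 1 and tumor 1 and from the scanner files. Without these columns 1 tumor array and 1 papilloma skin array remain, so the p-values rest on the spread within papillomas and tumor skin. Leaving out 1 array of papilloma skin, tumor skin or tumors likewise leaves 1 array in that group. All 12 member probes were well above background on all 9 arrays. Probes of different genes are not compared in level, since hybridization differs between probes.

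A probe was called when its limma adjusted p was at most 0.05, its log2 fold change at least 1 in either direction and its mean log2 level at least 6. The shares of all probes called, here and below, include probes under that level, which could not be called. All 12 member probes lay above it, the lowest being Sdf2l1 at 7.89. The shares are thus lower than those among probes that could be called. In tumors against tumor skin, 2 member probes were called higher (Trib3 and 1 of 2 for Atf4) and 1 lower (Herpud1), against 2.71% of all probes called higher and 1.51% called lower. In papillomas against papilloma skin, 3 were called higher (Ddit3, Chac1 and 1 of 2 for Dnajb9) and none lower, against 2.18% and 1% of all probes. Between the lesions, Trib3 was called higher and Chac1 lower in tumors than in papillomas, against 0.113% and 0.334% of all probes. The median log2 fold change over the 12 probes was 0.73 in tumors and 0.68 in papillomas, beside medians over all probes of -0.02 and -0.01. Between the skins none of the 12 was called, none passed an adjusted p of 0.05 and none had an unadjusted limma p under 0.05, against 0.26% of all probes called and 0.623% past the adjusted p. The test of whether the lesion effect differed between the stages called none of the 12, with 3 at an unadjusted limma p under 0.05, against 0.0269% of all probes called.

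**Figure D1:**
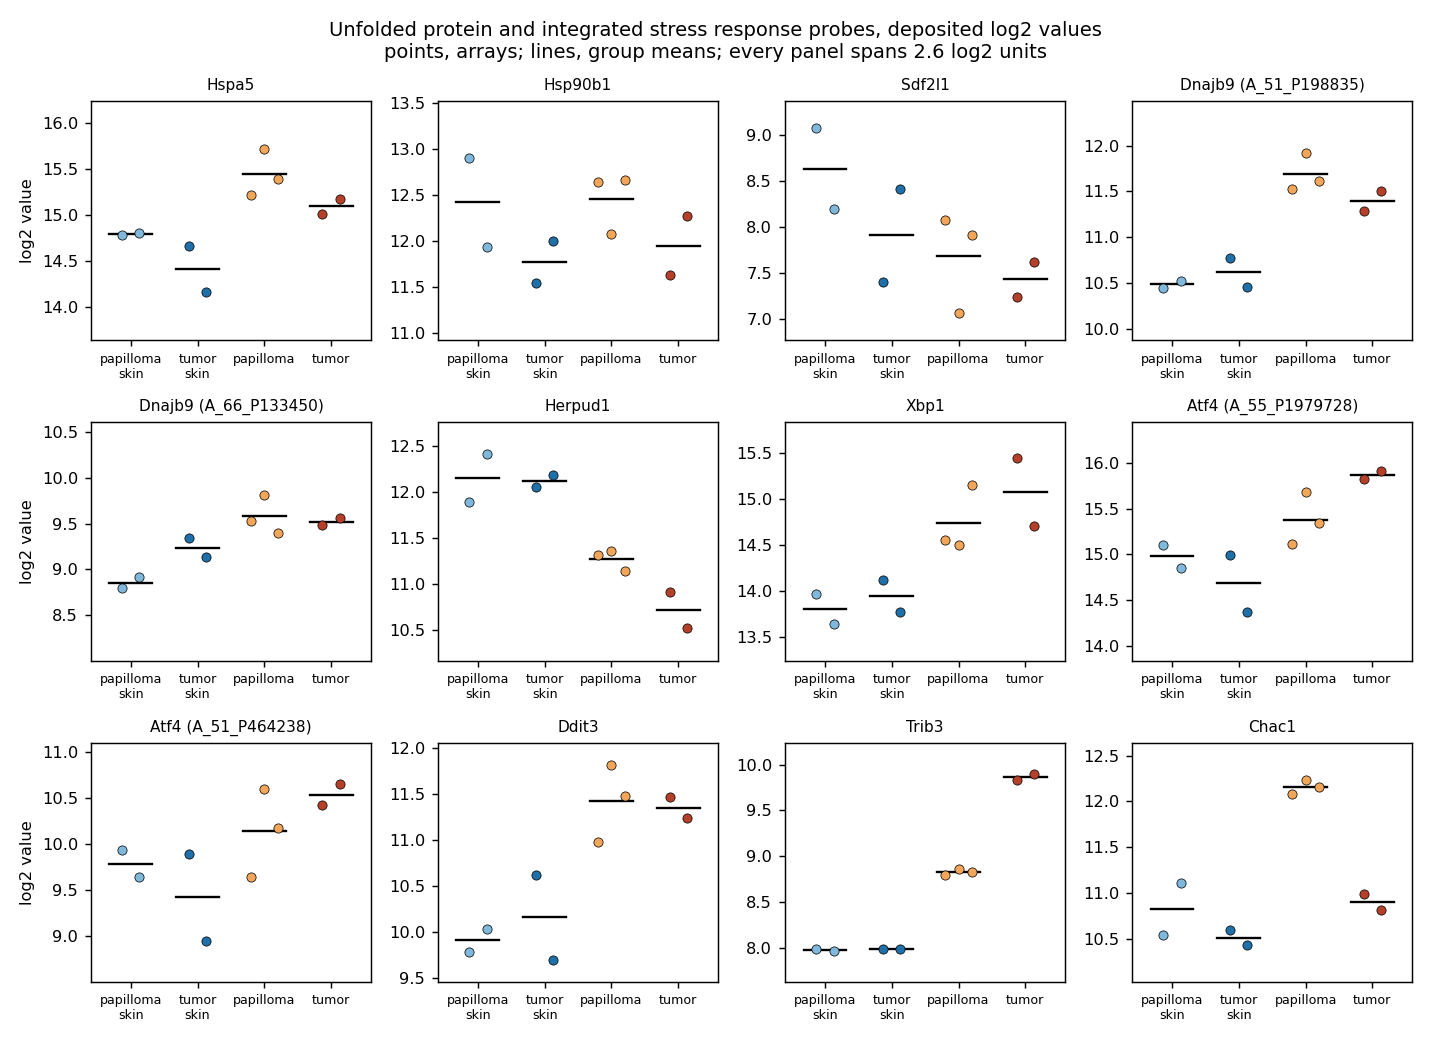
Log2 values of the 12 probes in the deposited value table (vertical axis) for the 4 groups (horizontal axis), with 1 point per array and a line at the group mean. Trib3 climbs from skin to papilloma to tumor, Chac1 is high in the 3 papilloma arrays, Herpud1 is lower in all 5 lesion arrays than in skin, and Hsp90b1 and Sdf2l1 overlap between lesions and skin.

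With the stages pooled, all 5 lesion columns lay above all 4 skin columns for 7 member probes, of Hspa5, Dnajb9 (both), Xbp1, Atf4 (1 of 2), Ddit3 and Trib3. Across all probes 7.49% did so. Herpud1 alone lay below skin in all 5, as 4.65% of all probes did. In the mean of both lesions against the mean of both skins, 3 probes were called higher (Xbp1, Ddit3 and Trib3) and 1 lower (Herpud1), against 2.29% and 1.33% of all probes, and 9 of 12 had an adjusted p of at most 0.05 at any fold, against 14.8% of all probes. In the scanner files, quantile normalized, 3 member probes had all lesion arrays above all skin arrays (Dnajb9 probe A_51_P198835, Xbp1 and Trib3), against 3.44% of all probes, and none lay below, against 1.22%. No member passed an adjusted p of 0.05 in that source, in which the lowest adjusted p of a member was 0.412 for this contrast.

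**Figure D2:**
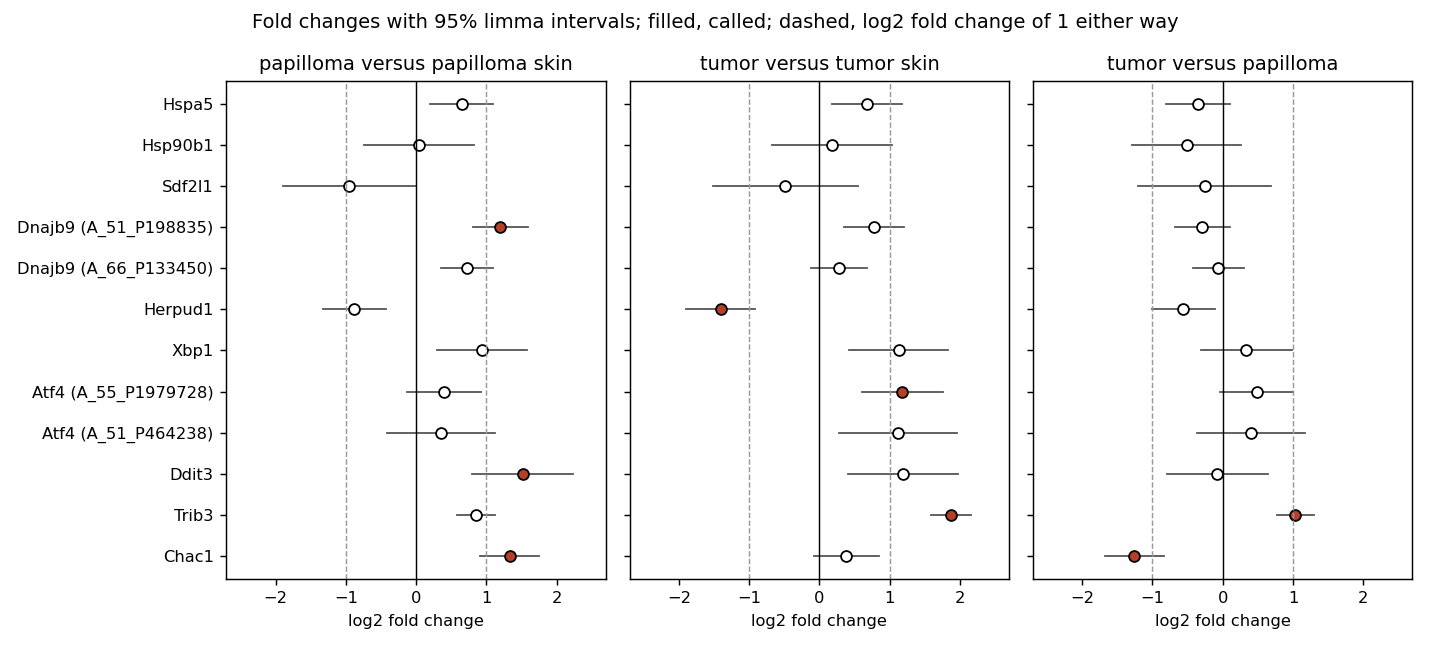
Log2 fold changes (horizontal axis) of the 12 probes in the 3 comparisons that involve a lesion, with 95% limma intervals as bars, filled points for called probes and dashed lines at a log2 fold change of 1 in either direction. Trib3 is called in both comparisons of the tumor, and Chac1 in both comparisons of the papilloma.

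The ATF4 targets Trib3 and Chac1 differed between the lesion stages. Trib3, a pseudokinase that ATF4 and CHOP raise and that binds AKT and ATF4 itself, was measured by a probe at chr2:152163161-152163220 of build mm9. Its log2 values were 7.99 and 7.97 in papilloma skin, 8.00 and 7.99 in tumor skin, 8.80, 8.86 and 8.83 in papillomas, and 9.83 and 9.90 in tumors. The 4 skin columns spanned 0.03, and the groups rose in 2 steps that did not overlap. Trib3 was 3.67-fold higher in tumors than in tumor skin (log2 fold change 1.87 with an SE of 0.13, limma adjusted p of 0.000498), and the difference within slide 1 was 1.84, against 0.28 in the scanner files. Between papillomas and papilloma skin the difference of 0.85 had an adjusted limma p of 0.00499 and stayed under the fold of the call. Tumors exceeded papillomas by 1.04 (SE 0.11, limma adjusted p of 0.0114), and the difference was 1.03 within slide 1 and 1.04 within slide 2. These within-slide values rest on the columns tumor 1 and papilloma 2, whose best match was another array's file, and the scanner files gave -0.29 within slide 1 and 0.95 within slide 2. With slide as a term in the fit the call against tumor skin held (limma adjusted p of 0.032) and that against papillomas was lost (0.182 by limma). The difference between the 2 lesion effects, 1.02, had a limma adjusted p of 0.104.

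Without the columns papilloma skin 1 and tumor 1, the Trib3 difference of tumors from tumor skin was 1.91 (limma adjusted p of 0.0151), and that of tumors from papillomas was 1.07 with an adjusted limma p of 0.143. The call against papillomas was also lost when papilloma 1, papilloma 3, tumor 1 or tumor 2 was left out alone, with adjusted limma p-values of 0.0660 to 0.113 and differences of 1.00 to 1.07. The scanner files gave a wider spread. There the skin arrays read 6.15, 8.25, 8.20 and 8.31, the papillomas 8.78, 9.21 and 9.09, and the tumors 8.48 and 10.16, so that 1 tumor array lay below every papilloma. The difference of tumors from papillomas was 0.30 in that source, and that from tumor skin was 1.07.

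Chac1, a gamma-glutamylcyclotransferase that degrades glutathione and is raised by ATF4, had its maximum in papillomas. Its probe at chr2:119179990-119180049 (mm9) read 10.54 and 11.11 in papilloma skin, 10.60 and 10.44 in tumor skin, 12.09, 12.24 and 12.16 in papillomas, and 10.99 and 10.82 in tumors. The papilloma columns lay above all others, and the tumors overlapped with skin. Chac1 was 2.52-fold higher in papillomas than in papilloma skin (log2 fold change 1.33, SE 0.18, limma adjusted p of 0.00519), with differences of 1.54 and 1.13 within slides 1 and 2. Tumors were lower than papillomas by a log2 difference of -1.26 (SE 0.18, limma adjusted p of 0.0282), and -1.10 and -1.42 within those slides. The difference of tumors from tumor skin, 0.38, had an adjusted limma p of 0.26, and the difference between the lesion effects, -0.95, had one of 0.202.

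Without papilloma skin 1 and tumor 1, Chac1 remained called in papillomas at 1.05 (limma adjusted p of 0.0426), while the -1.34 between tumors and papillomas had an adjusted limma p of 0.127. With slide as a term these limma adjusted p-values were 0.0421 and 0.219. The second call was also lost when any 1 of the 5 lesion arrays was left out, with adjusted limma p-values of 0.0805 to 0.183. In the scanner files Chac1 read 11.87, 12.38 and 12.12 in papillomas and 10.86 and 11.03 in tumors, again without overlap. The skin arrays read 8.56, 11.47, 10.50 and 10.21 there, the lowest being papilloma skin 1, and the difference between papillomas and papilloma skin was 2.11 with all arrays and 0.69 with the 6 arrays of full spike-in slope.

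**Figure D3:**
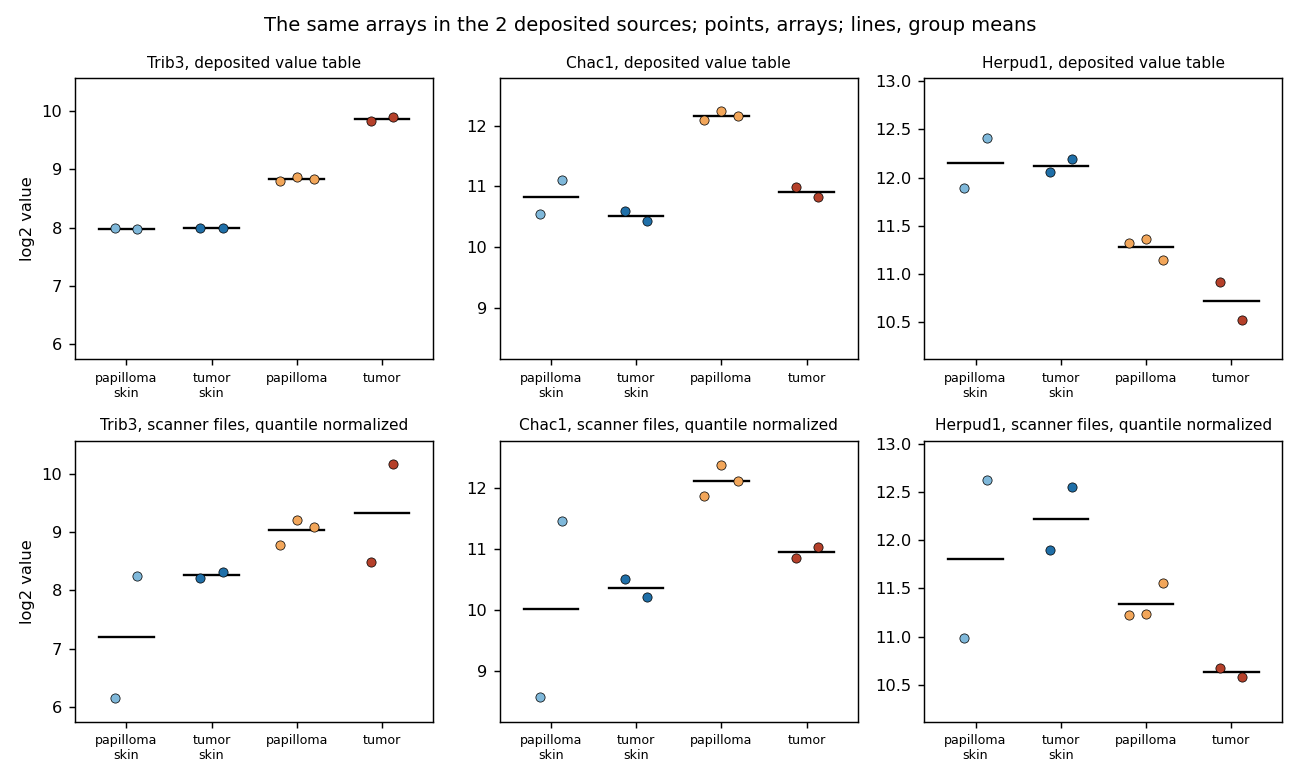
Log2 values (vertical axis) of Trib3, Chac1 and Herpud1 for the 4 groups (horizontal axis), in the deposited value table (top) and in the quantile-normalized scanner files (bottom), with 1 point per array and a line at the group mean. The array papilloma skin 1 is the lowest skin array for each of the 3 genes in the scanner files, and tumor 1 lies below the papillomas for Trib3.

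Markers of other cells moved between the same groups. Summed log2 levels of 5 red blood cell genes were 19.3 and 19.9 in tumors, 14.7 to 16.0 in papillomas and 17.0 to 18.1 in skin, and 4 of the 5 were called higher in tumors than in papillomas. Summed levels of 6 smooth muscle genes were 13.3 to 13.5 in papillomas, 11.4 and 11.5 in tumors and 11.7 to 12.0 in skin, with 5 of 6 called higher in papillomas than in papilloma skin and 5 of 6 called lower in tumors than in papillomas. Papillomas were thus the highest group for both Chac1 and the smooth muscle genes. Summed levels of 9 neutrophil genes stayed within 19.6 to 20.0 on every array, although 2 of them were called lower in tumors than in tumor skin. Endothelial and fibroblast genes were also highest in papillomas (11.6 to 12.2 and 15.5 to 16.0), against 10.2 to 10.9 and 12.9 to 14.8 in the other groups. The 4 lists that follow separated all lesions from all skin, as did the plasma and B cell list given with Sdf2l1. Summed keratinocyte levels were 11.9 to 13.0 in skin and 13.4 to 15.6 in lesions, with 5 of 13 genes called higher in the pooled lesions. Eosinophil levels were 13.0 to 14.0 in skin and 11.3 to 12.0 in lesions, with 5 of 8 genes called lower in each stage and in the pooled lesions, Siglec5 called higher in tumors, and Epx was not well above background on the 6 arrays of full spike-in slope. Levels of immature neutrophil granule genes were 16.8 to 17.7 and 15.3 to 15.7, with 4 of 8 called lower in tumors and 6 in papillomas, and T cell levels were 12.6 to 12.8 and 12.0 to 12.4. The part of these cells in the member results was not tested. The counts of called genes in these lists stand beside the shares of all probes called, given above for each contrast. In pools of sorted cells, fewer cells of a type and less RNA per cell cannot be told apart.

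**Figure D4:**
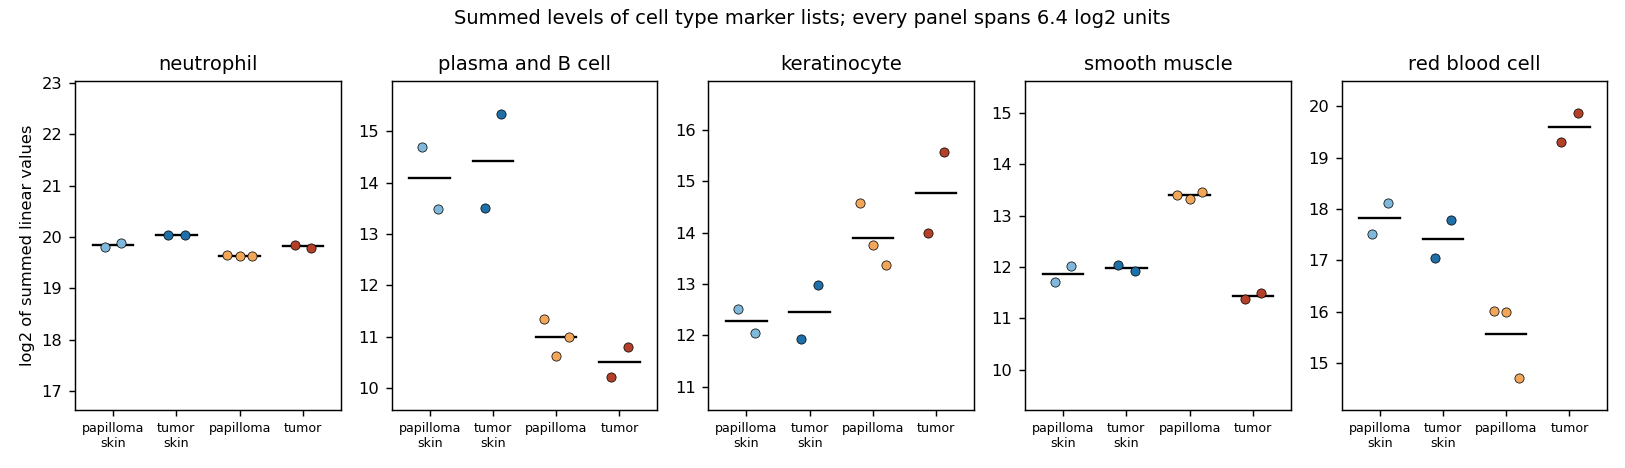
Log2 of the summed linear values (vertical axis) of 5 marker lists for the 4 groups (horizontal axis), with 1 point per array and a line at the group mean. Neutrophil genes stay within 19.6 to 20.0, plasma and B cell genes are 13.5 to 15.3 in skin and 10.2 to 11.4 in lesions, and red blood cell genes are highest in tumors.

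Of the transcription factors, Ddit3 was called in papillomas and 1 Atf4 probe in tumors, Ddit3 and Xbp1 were called with the stages pooled, and none was called between tumors and papillomas or in the test of the difference between the lesion effects. Ddit3 encodes CHOP, a factor that raises death and recovery genes under lasting stress, and its probe lies at chr10:126732518-126732821 (mm9). Its log2 values were 9.78 and 10.04 in papilloma skin, 10.62 and 9.70 in tumor skin, 10.98, 11.82 and 11.48 in papillomas, and 11.47 and 11.24 in tumors. Every lesion column exceeded every skin column, the nearest being papilloma 1 and tumor skin 1. Papillomas exceeded papilloma skin 2.86-fold (log2 fold change 1.52, SE 0.31, limma adjusted p of 0.027). The differences within slides 1 and 2 were 1.20 and 1.78, against 0.36 and 1.28 in the scanner files. Tumors differed from tumor skin by 1.19 with an adjusted limma p of 0.0641. The pooled lesion difference was 1.36 (limma adjusted p of 0.00674). Without papilloma skin 1 and tumor 1, the pooled difference was 1.23 (limma adjusted p of 0.0701) and that in papillomas 1.39 (limma adjusted p of 0.195), and neither was called. The call in papillomas was lost with slide as a term (limma adjusted p of 0.0869) and without papilloma skin 1, papilloma skin 2, papilloma 2 or papilloma 3, with adjusted limma p-values of 0.0748 to 0.137, and that in tumors was gained without tumor skin 1 (1.65, adjusted limma p of 0.0337), while without tumor skin 2 the difference was 0.73 (adjusted limma p of 0.21). In the scanner files the difference was 1.02 in papillomas and 1.16 in tumors.

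Atf4 encodes the factor through which eIF2alpha phosphorylation acts on transcription, and is regulated chiefly at translation. Probe A_55_P1979728, at chr15:80087902-80087961 (mm9), read 15.11 and 14.86 in papilloma skin, 14.99 and 14.38 in tumor skin, 15.12, 15.68 and 15.34 in papillomas, and 15.82 and 15.91 in tumors. The tumors were the highest columns, and papilloma 1 lay within 0.02 of the highest skin column. Tumors exceeded tumor skin by 1.18 (SE 0.25, limma adjusted p of 0.0252). The difference within slide 1 was 0.83, against 0.08 in the scanner files. Papillomas differed from papilloma skin by 0.40 (adjusted limma p of 0.373). The second probe, A_51_P464238 at chr15:80086639-80086698, read 9.93 and 9.64, 9.90 and 8.95, 9.64, 10.61 and 10.18, and 10.42 and 10.66 in the same order of groups. Its differences of 1.12 and 0.35 ran the same way with adjusted limma p-values of 0.0951 and 0.613. The call of the first probe was lost with slide as a term (limma adjusted p of 0.183) and without tumor skin 2, papilloma 3, tumor 1 or tumor 2 (adjusted limma p of 0.0514 to 0.142), and its difference was 0.63 in the scanner files.

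Xbp1, the factor that IRE1 activates by splicing, was measured at chr11:5425816-5425875 (mm9) by a single probe, which does not tell spliced from unspliced mRNA here. Its log2 values were 13.97 and 13.64 in papilloma skin, 14.12 and 13.77 in tumor skin, 14.56, 14.50 and 15.16 in papillomas, and 15.44 and 14.71 in tumors. The lesions lay above the skins and overlapped with each other. Neither stage was called (tumors 1.13, limma adjusted p of 0.0552, and papillomas 0.94, limma adjusted p of 0.0981). In the scanner files the difference was 0.36 in tumors and 1.37 in papillomas. The pooled lesion difference was 1.03 with an adjusted limma p of 0.0137, and 0.93 with 0.0567 by limma without papilloma skin 1 and tumor 1.

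The chaperones did not move together. Hspa5, which encodes BiP, the main chaperone of the endoplasmic reticulum and the regulator of its sensors, read 14.78 and 14.81 in papilloma skin, 14.66 and 14.16 in tumor skin, 15.22, 15.71 and 15.39 in papillomas, and 15.01 and 15.17 in tumors, at chr2:34631913-34631972 (mm9). All lesion columns were above all skin columns. The differences of 0.65 in papillomas and 0.68 in tumors had adjusted limma p-values of 0.105 and 0.088, and the pooled difference of 0.66, a change of 1.58-fold, had one of 0.0202. The pooled adjusted limma p was 0.0876 without papilloma skin 1 and tumor 1, 0.0671 with slide as a term and 0.817 in the scanner files. The difference in tumors was 0.43 without tumor skin 2.

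Dnajb9 encodes ERdj4, a co-chaperone of BiP that XBP1 raises and that assists degradation and holds IRE1 off. Probe A_51_P198835, at chr12:45307313-45307372 (mm9), read 10.45 and 10.53 in papilloma skin, 10.77 and 10.46 in tumor skin, 11.52, 11.92 and 11.62 in papillomas, and 11.29 and 11.50 in tumors. No lesion column overlapped with a skin column. Papillomas exceeded papilloma skin by 1.20 (SE 0.17, limma adjusted p of 0.00608), with 1.07 and 1.39 within slides 1 and 2, and tumors exceeded tumor skin by 0.77 with an adjusted limma p of 0.0386, under the fold of a call. Without papilloma skin 1 and tumor 1 the papilloma difference of 1.16 had an adjusted limma p of 0.0707. Probe A_66_P133450, at chr12:45308272-45308331, gave smaller differences of 0.72 in papillomas (adjusted limma p of 0.0351) and 0.28 in tumors (adjusted limma p of 0.342), from 8.80 to 9.34 in skin and 9.40 to 9.82 in lesions, and its difference in tumors turned to -0.29 in the scanner files.

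Hsp90b1 and Sdf2l1 showed no called difference. Hsp90b1 encodes GRP94, the HSP90 of the endoplasmic reticulum, which folds integrins and toll-like receptors. Its probe, at chr10:86153770-86153829 (mm9), read 12.91 and 11.93 in papilloma skin, 11.54 and 12.01 in tumor skin, 12.65, 12.08 and 12.67 in papillomas, and 11.63 and 12.27 in tumors. The lesions overlapped with the skin of their own stage, while the papillomas lay above tumor skin, and the pooled lesion difference was 0.11 (adjusted limma p of 0.812). Sdf2l1, a partner of BiP co-chaperones that ER stress induces, read 9.07 and 8.20 in papilloma skin, 7.40 and 8.42 in tumor skin, 8.07, 7.07 and 7.91 in papillomas, and 7.24 and 7.61 in tumors, at chr16:17130426-17130485. All papilloma columns lay below papilloma skin, while the tumors overlapped with tumor skin. The Sdf2l1 differences of -0.95 in papillomas and -0.48 in tumors had adjusted limma p-values of 0.239 and 0.539. The papilloma difference turned to 0.42 in the scanner files.

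Within each skin group, the column with the higher Hsp90b1 and Sdf2l1 values was also that with the higher summed level of plasma and B cell genes. In papilloma skin the summed level was 14.7 in column 1 and 13.5 in column 2, and in tumor skin 13.5 in column 1 and 15.3 in column 2, against 10.2 to 11.4 in lesions. The same order of columns held for the keratinocyte, fibroblast, monocyte and macrophage, dendritic cell, T cell, eosinophil and endothelial lists. It was thus not particular to plasma and B cell genes. In the scanner files the order of Sdf2l1 in papilloma skin was the reverse, at 6.24 and 8.16. Of the 11 genes of the plasma and B cell list, 4 were called lower in tumors than in tumor skin (Igj, Cd79b, Pou2af1 and Derl3). Prdm1, which other cells also express, was called higher by 1.17. Of all probes, 1.51% were called lower and 2.71% higher in that contrast. The part of plasma cells in the levels of these chaperones was not tested.

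Herpud1 was the only member called lower in lesions than in skin. It encodes a membrane protein that organises the degradation complex of the endoplasmic reticulum, and is a target of ATF6, XBP1 and ATF4. Its log2 values at chr8:96919117-96919176 (mm9) were 11.89 and 12.41 in papilloma skin, 12.06 and 12.19 in tumor skin, 11.32, 11.36 and 11.14 in papillomas, and 10.91 and 10.52 in tumors. Each lesion group lay below all skin columns, and the tumors lay below the papillomas. In tumors it fell by 1.41 on the log2 scale (SE 0.21, limma adjusted p of 0.00809), and the difference within slide 1 was -1.14. In papillomas the difference of -0.88 had an adjusted limma p of 0.0367, under the fold of a call, and the -0.56 between tumors and papillomas had one of 0.259.

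Without papilloma skin 1 and tumor 1, the Herpud1 differences were -1.61 in tumors (limma adjusted p of 0.0226) and -1.14 in papillomas (limma adjusted p of 0.0405), both called. The call in tumors was lost with slide as a term (-1.47, limma adjusted p of 0.093) and without tumor 2 (-1.21, limma adjusted p of 0.0677). The scanner files gave -1.60 in tumors. In papillomas they gave -0.47 after quantile normalization and 0.38 after scaling to the 75th percentile, which also moved the median of all probes in that comparison by -0.40.

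The wider pathway was read from 5 lists that hold the members and their partners. Of 31 ATF4 and CHOP target genes with 39 probes, 5 were called higher in tumors, 5 in papillomas and none lower in either, against 2.71% and 2.18% of all probes called higher and 1.51% and 1% called lower. In tumors these were Atf4, Trib3, Atf5, Ddit4 and Ero1l, and in papillomas Ddit3, Chac1, Cars, Ddit4 and Ero1l. The medians over the 39 probes were 0.45 and 0.27, beside the near-0 medians of all probes given above. This list holds the members Atf4, Ddit3, Trib3 and Chac1, and without them 3 genes were called higher in each stage. The medians were then 0.41 in tumors and 0.09 in papillomas. Ero1l, the oxidase that reoxidizes protein disulfide isomerase and that hypoxia also raises, read 8.28 to 8.66 in the 4 skin columns and 11.2 to 11.7 in the 5 lesion columns, with differences of 2.86 in tumors (limma adjusted p of 0.000813) and 2.89 in papillomas (limma adjusted p of 0.000289). Ddit4, an inhibitor of mTORC1 that hypoxia and glucocorticoids raise as well, differed by 1.57 and 2.45 (limma adjusted p of 0.00163 and 0.000162). Atf5, a factor translated like ATF4, differed by 1.18 in tumors (limma adjusted p of 0.0227) and by 0.85 in papillomas (limma adjusted p of 0.063). Other targets of ATF4 were not called, among them Asns, the asparagine synthetase (0.14 and 0.04), and Sesn2, a sensor that restrains mTORC1 (-0.47 and 0.27). Atf3 was not called either, at 0.89 in tumors (limma adjusted p of 0.0405) and 0.72 in papillomas (limma adjusted p of 0.0753). With the stages pooled, 14 of the 39 probes had a limma adjusted p of at most 0.05, against 14.8% of all probes. These 14, which include members, were higher in lesions.

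Among 17 genes of ER chaperones and folding enzymes with 20 probes, 1 was called higher in tumors (P4hb) and 2 in papillomas (P4hb and Dnajb9), none was called lower, and the medians were 0.01 and -0.13. Without the members in this list, only P4hb was called in each stage, and the medians were -0.16 and -0.21. These counts, and those of the 3 lists that follow, stand beside the same shares of all probes. P4hb, protein disulfide isomerase and a subunit of prolyl 4-hydroxylase, read 12.0 to 12.4 in skin and 14.5 to 14.9 in lesions, with differences of 2.58 in tumors (limma adjusted p of 0.000807) and 2.46 in papillomas (limma adjusted p of 0.000366). Calr, Pdia4, Creld2 and Manf of that list were not called in either comparison. The Hyou1 probe had a mean log2 level of 5.93, under the level of a call, and could not be called. Of 16 degradation and translocation genes with 24 probes, Herpud1 and Derl3 were called lower in tumors and Derl3 in papillomas, none was called higher, and the medians were 0.04 and -0.06. Derl3, a derlin that plasma cells express strongly and that also stands in the plasma and B cell list, differed by -3.08 in tumors (limma adjusted p of 0.00393) and -2.07 in papillomas (limma adjusted p of 0.0114).

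Of the 9 UPR sensors and transducers with 15 probes, none was called in tumors or in papillomas. The sensor IRE1 (Ern1) had 4 probes, which differed in direction. Its probe A_51_P516705 read 9.61 to 9.66 in skin and 8.77 to 9.02 in lesions, with differences of -0.74 and -0.80 and limma adjusted p-values of 0.0185 and 0.0108, under the fold of a call. PERK (Eif2ak3) differed by 0.02 and 0.55 and Atf6 by 0.20 and -0.19, and neither passed the test. Of 7 eIF2alpha kinases and phosphatase genes with 10 probes, 1 of 3 probes for the amino acid sensor GCN2 (Eif2ak4) was called higher in tumors, at 1.04 (limma adjusted p of 0.0323), and none in papillomas. The phosphatase subunit GADD34 (Ppp1r15a), which ATF4 and CHOP raise to end the response, differed by 0.93 in papillomas (limma adjusted p of 0.00877) and 0.49 in tumors (limma adjusted p of 0.0921). Asns, Sesn2, Atf3, Calr, Pdia4, Creld2, Manf, Hyou1, Ern1, Eif2ak3, Atf6, Eif2ak4, Cars and Ppp1r15a were chosen for mention after their values were seen.

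**Figure D5:**
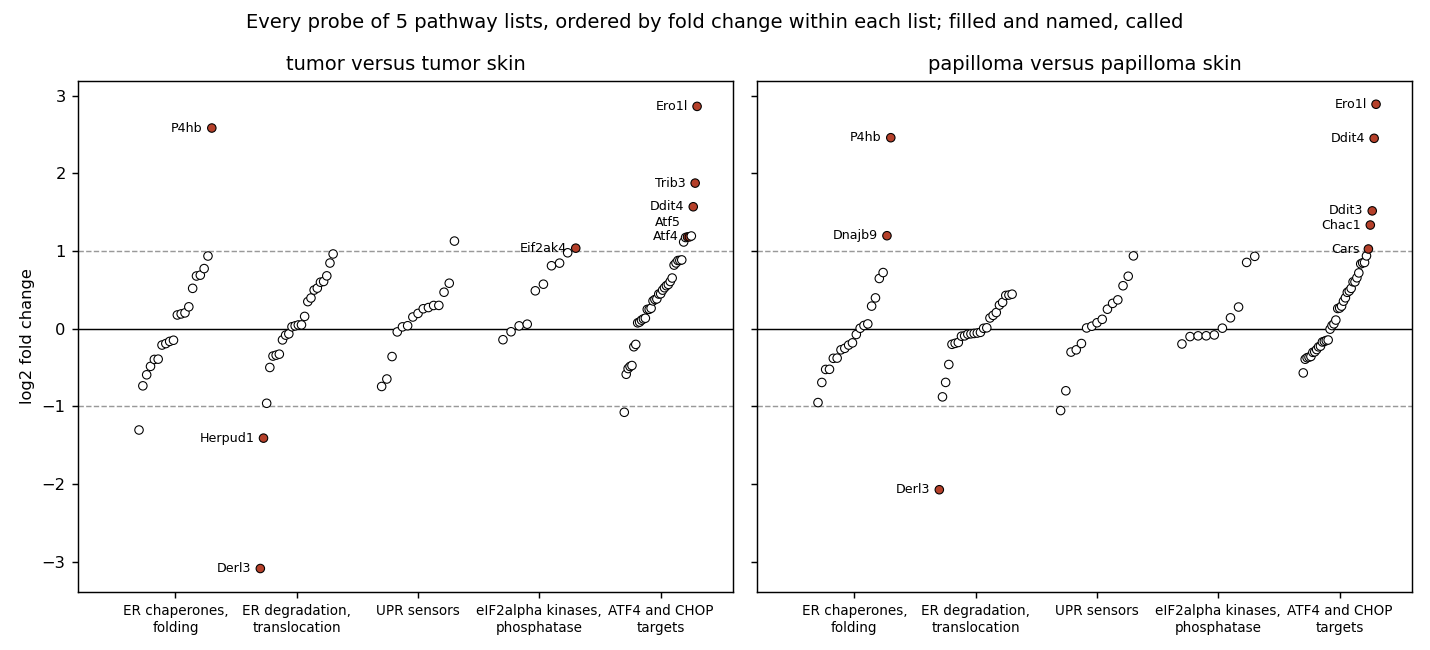
Log2 fold change (vertical axis) of every probe of the 5 pathway lists (horizontal axis, ordered by fold change within a list), for tumors against tumor skin (left) and papillomas against papilloma skin (right), with called probes filled and named. Ero1l and P4hb stand highest in both panels, Derl3 stands lowest in both, and the dashed lines mark a log2 fold change of 1 in either direction.

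Some genes that tissue digestion can raise were higher in the same lesions. Of 9 early response genes, 3 were called higher in tumors (Egr1, Jun and Ier3) and 1 lower (Fosb), and 4 were called higher in papillomas. Egr1 differed by 2.57 and 2.18, Jun by 1.47 and 1.46 and Ier3 by 3.12 and 1.99 in tumors and papillomas. Fos (0.41 and 0.14), Dusp1 (-0.10 and 0.34), Ier2 (0.26 and 0.10) and Junb (1.04 and 0.82) were called in neither. Of 9 cytosolic heat shock genes with 14 probes, Hsp90aa1 (1.33 and 1.01) and Hspa1a (1.01 and 1.26) were called higher in both. The other genes of that list, among them Hspa8, Hsph1 and Bag3, were called in neither. Dnajb1 differed by 0.96 and 0.70 (limma adjusted p of 0.0154 and 0.0419), under the fold of a call. Hspe1 probes A_55_P2089358 and A_66_P124952 also passed an adjusted limma p of 0.05 in both, and A_55_P1953063 in neither. Dnajb1 and Hspe1 were named after their values were seen. The counts of both lists stand beside the same shares of all probes as above. The part of digestion in the member results was not tested.

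Genes whose pattern was most like that of a member over the 9 columns were sought for Hspa5 and Ddit3. For Hspa5 they were Znrd1as, Pmaip1, Tmem66, Slc38a2 and Arf4 (Pearson's r of 0.974 to 0.980). For Ddit3 they were Vmp1, Vps4b, Gm13315, Vps13d and 1700023D09Rik (r of 0.985 to 0.994). Among the members themselves, Ddit3 was most like Dnajb9 probe A_51_P198835 (r = 0.952) and least like Sdf2l1 (r = -0.81). The 9 columns share the split between lesion and skin, so these values describe likeness and carry no test.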

How the data were processed

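RNA of Gr-1bright neutrophils was hybridized to 9 one-colour Agilent SurePrint G3 Mouse 8x60K arrays on 3 slides. The scanner files hold the intensity that Feature Extraction 10.7.3.1 background-subtracted, per the file headers, with probe coordinates on build mm9. The deposited value table holds log2 values that the authors quantile normalized and corrected for batch with ComBat, per their methods, and its exact steps were not rebuilt here. Its columns were matched to samples by label. Per the submitters' processing notes limma was used, version not given in the sources used here.

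Here limma 3.58.1 in R 4.3.3 (lmFit and eBayes) was fitted to the 4 group means of the 55681 probes of the table, with 5 residual degrees of freedom and Benjamini-Hochberg adjustment over all probes within a contrast. All 9 arrays shared 1 estimate of the spread, and probes of a gene were kept apart. The script was tested on simulated data. Alternatives were a slide term, a replicate block, filters on level and on dim probes (well above background on at least 2 arrays), genes in place of probes, a robust prior, the scanner files after quantile or 75th percentile scaling with and without a slide term, after ComBat by slide, and after normexp with offset 50, subsets of 7 and 6 columns, and leaving out each array. The scanner fit on the 6 arrays of full spike-in slope was added after seeing the data. Figures were drawn with matplotlib 3.10.9 in Python 3.11.15. No spot of these arrays was saturated, and the number of arrays limits the precision.

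The members and all gene lists were chosen with earlier results of these data known. All members were named, with every probe. Of each pathway list, called genes with the largest pooled lesion differences were named. The 13 marker lists covered neutrophils, their immature granules and other cells of skin and blood. Promoter windows came from RefSeq (GRCm38.p6). Coordinates of the 2 builds were not mixed, and the exon or UTR of a probe is not given here. Red blood cell, smooth muscle, plasma cell, neutrophil and digestion lists are given beside the results.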

Additional observations from a re-analysis of the deposited data

How the results depend on the processing

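Of the 26 fold changes followed, none of the 8 called ones changed sign among 200 values under other settings. Some of the 200 could not change sign. Filters on level or on dim probes, a robust prior, or leaving out an array of another group keep the fold change as it was. Calls were lost in the scanner files, apart from those that ComBat gave in papillomas and pooled lesions. Calls of member probes in tumors against tumor skin (3) fell to 1 with a slide term and 1 with a replicate block, and to 0 under each scanner setting. In papillomas against papilloma skin (3) they fell to 0 with the replicate block and to 0 in the scanner files with quantile, 75th percentile or normexp values and with 6 arrays, and rose to 6 with ComBat on the scanner files. Between tumors and papillomas (2) they fell to 0 with the slide term, the replicate block, each scanner setting, 7 columns and 6 arrays. For pooled lesions (4) they were 0 under the scanner settings except 2 with ComBat, and 7 with the 6 columns of full-slope arrays. The cause of the lost calls was not tested. Whether replicate numbers pair the arrays is not known. Deviations of same-numbered arrays correlated at 0.08 and 0.38 between papilloma skin and papillomas and at 0.28 between tumor skin and tumors. Over all pairs of groups they ranged from -0.96 to 0.38. In groups of 2 arrays the deviations mirror each other, so these values cannot decide on a pairing. Leaving out 1 array gave 1 (without tumor 2) to 5 (without tumor skin 1) calls in tumors, 2 to 3 in papillomas, 0 to 2 between the lesions and 3 to 5 for pooled lesions.

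Values that turned sign were small or not called. Dnajb9 probe A_66_P133450 in tumors was -0.29, -0.41, -0.38, -0.29, -0.24 and -0.20 in the scanner files, Xbp1 -0.15 and Chac1 -0.018 with the 75th percentile and slide. In papillomas Hsp90b1 was -0.10 with slide, -0.060 with the replicate block and -0.079, -0.11, -0.12 and -0.023 in the scanner files, Sdf2l1 0.42, 0.28, 0.29 and 0.18, and Herpud1 0.16 and 0.38 with the 75th percentile. Leaving out 1 array, Hsp90b1 ranged from -0.14 to 0.50 in tumors and from -0.45 to 0.53 in papillomas, and Sdf2l1 from -0.99 to 0.022 in tumors. The 75th percentile scaling moved the median of all probes by -0.16 in tumors, -0.40 in papillomas and 0.28 between the lesions.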
